A study of Mus musculus with 10 samples.

Results

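The nuclear RNA polymerases I, II and III are multi-subunit enzymes, and the transcripts of their subunits were compared between U11 mutant and control dorsal telencephalon of the mouse embryo. Members were all symbols formed by Polr1, Polr2 or Polr3, a letter and an optional l, without pseudogenes, which gave 28 of the 38803 symbols measured. Of these, 5 encode subunits shared by polymerases I, II and III, 2 are shared by I and III, 3 belong to I, 8 to II and 10 to III. Tissue was dissected at embryonic day 12, and RNA was sequenced after removal of ribosomal RNA. The 5 mutant libraries carried the genotype Rnu11Flx/Flx::Emx1-Cre+/- and the 5 control libraries Rnu11WT/Flx::Emx1-cre+/-, all on a C57/Bl6 - 129 SvJ background. Emx1-Cre acts in progenitors of the dorsal telencephalon, so vessels, blood and microglia in the dissected tissue keep Rnu11. Controls carry the same Cre with a single floxed copy, which the Cre can delete too. Nothing in the labels ties a library to its own embryo, and the spread behind each p-value may then be technical.

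RNA polymerase I makes the large ribosomal RNA precursor, polymerase II makes messenger RNA and most small nuclear RNAs, and polymerase III makes transfer RNA, 5S ribosomal RNA and other short RNAs. Each enzyme has its own catalytic core and stalk, while a few small subunits are built into all of them. Rnu11 encodes the U11 small nuclear RNA of the minor spliceosome, which pairs with the 5′ end of a rare class of introns. Polr2e, which encodes the shared subunit RPB5 (RPABC1) in the jaw of the enzyme around downstream DNA, is the member known to carry such a minor intron.

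The minor intron could be read from annotated Polr2e transcripts that keep it, and it is shown because Polr2e was taken as the member with a minor intron. In GRCm38 (GENCODE M21) Polr2e lies on the minus strand of chromosome 10, and intron 4 of the 6 introns of its protein-coding transcript, chr10:80036843-80036914, is 72 bases long. It began with GTATCCTT, one form of the 5′ splice site of minor introns, and held TTCCTTGA, a form of their branch point, ending 9 bases before the 3′ end of the intron. These motifs are in capitals below, with 8 exon bases on each side in lower case, 5′ to 3′.
Polr2e intron 4: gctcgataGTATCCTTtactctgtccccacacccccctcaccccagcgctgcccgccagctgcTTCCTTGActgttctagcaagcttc
The 5′ borders of 3 other Polr2e introns that could be read are given for comparison, with the first 8 intron bases in capitals after 8 exon bases.
Polr2e intron 2: cttcccagGTGAGGCCcttg
Polr2e intron 3: agcacgagGTGTGTGTggtg
Polr2e intron 5: gagggcagGTGAGAAGccac
These begin with GTGAG or GTGTG, and their last bases are AG, as in intron 4. The first 30 bases of U11 (Rnu11, chr4:132270080-132270213, minus strand, written with T) are shown with, in capitals, the longest run of its first 20 bases that is the reverse complement of a stretch in the first 12 bases of intron 4.
U11 5′ end: aaAAAGGgcttctgtcgtgagtggcacacg
The run covers bases 3 to 7 of U11 and matches bases 5 to 9 of the intron.

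Of 5 annotated Polr2e transcripts, 3 keep intron 4, against 1 each for introns 2, 3 and 5 and 0 for introns 1 and 6. The annotation lists transcripts and says nothing on their levels in these libraries. Introns of other members were searched in the same way on the sense strand, where a transcript of the same gene keeps them. Of 324 distinct introns of the members 17 could be read, from 10 of the 28 genes, and intron 4 of Polr2e was the 1 that began with GTATCCTT or ATATCCTT. It was also the 1 with TTCCTTAA or TTCCTTGA in its last 40 bases. Over all genes 11884 introns could be read, of which 0.412% began with either form, 0.353% held a branch motif in the last 40 bases and 0.0673% had both. The introns of members that could not be read were not searched.

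Values were read as FPKM, although the labels do not name the unit. FPKM is a level per length of transcript and per library size. Tests were made with limma on log2(FPKM + 1) for the 13522 genes that reached 1 FPKM in 5 or more libraries. The log2 scale with a pseudocount understates changes of low genes. Calls are at an adjusted p under 0.05 over all tested genes. No source used here gives the number of fragments. A rough estimate from the step of a single fragment ran from 9920000 to 20800000 per library, and 13092 to 14229 genes reached 1 FPKM. The targeted gene was lower in each mutant library. Rnu11 lay at 712, 473, 511, 1344 and 1421 FPKM in mutants 1 to 5, against 2386, 2031, 2817, 1913 and 2266 FPKM in controls 1 to 5. The log2 difference of -1.50 did not pass over all genes (limma, adjusted p = 0.118), and passed with library set as a second term (0.00853). The mutant mean was 39.1% of the control mean (p = 0.00794 in an exact two-sided permutation test, which can give no smaller p with 5 libraries a group). The median log2 difference of all tested genes was 0.11, so differences are also given relative to it.

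The libraries also divided in a way that cut across genotype. Mutants 4 and 5 and control 5 had 487 to 688 FPKM of the U12 RNA Rnu12 and are called the second set, and the other 7 libraries had 5.91 to 33.8 FPKM and are the first set. The nature of the split is not given by the labels. All 8 dorsal telencephalon markers were detected, Emx1 at 16.5 to 23.2 FPKM in mutants and 13.6 to 24.7 FPKM in controls. Their summed level was 192.2 to 251 FPKM in mutants and 129.8 to 191.9 FPKM in controls. These sums did not overlap, but mutant 1 exceeded control 5 by little. Neurod6 had the highest log2 difference of the 8, at 0.82, and is also among the 10 neuron markers.

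All 28 subunits passed the filter on low values, and none was listed at 0 in any library. Levels ran from 2.15 FPKM for Polr3b in control 2 to 136 FPKM for Polr2m in control 4. Over all libraries 4 members averaged at least 50 FPKM, namely Polr2m, Polr1c, Polr2g and Polr2e, and 11 averaged under 10 FPKM, including the 3 polymerase I members. The summed level of the 28 was 585 to 642 FPKM in mutants, mean 616 ± 21.5, and 569 to 695 FPKM in controls, mean 625 ± 55.0 (SD, n = 5 each). The groups overlapped, and the sum did not separate them.

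In mutants 0 of 28 subunits passed the threshold over all genes, where 0.155% of all tested genes did (limma, 21 genes). With a library left out, 2 to 79 genes passed, and 79 without control 5. Polr2e had the smallest adjusted p of the members, 0.0671. Among the members 11 log2 differences lay below 0 and 17 above, with a median of 0.02, which is -0.09 relative to all tested genes. Over all tested genes 3291 lay below 0 and 10231 above. The 95% interval of the difference excluded 0 for 5 members, among them Polr2e and Polr3c with lower levels in mutants and Polr2i and Polr2j with higher levels. At an unadjusted p under 0.05, 1.07% of all tested genes were lower and 7.69% were higher, so the 3 lower and 2 higher members are 10.7% and 7.14% of the 28. For 21 members the whole interval lay within a 1.5-fold change of FPKM + 1 in either direction, which bounds the FPKM of low genes less tightly.

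**Figure D1:**
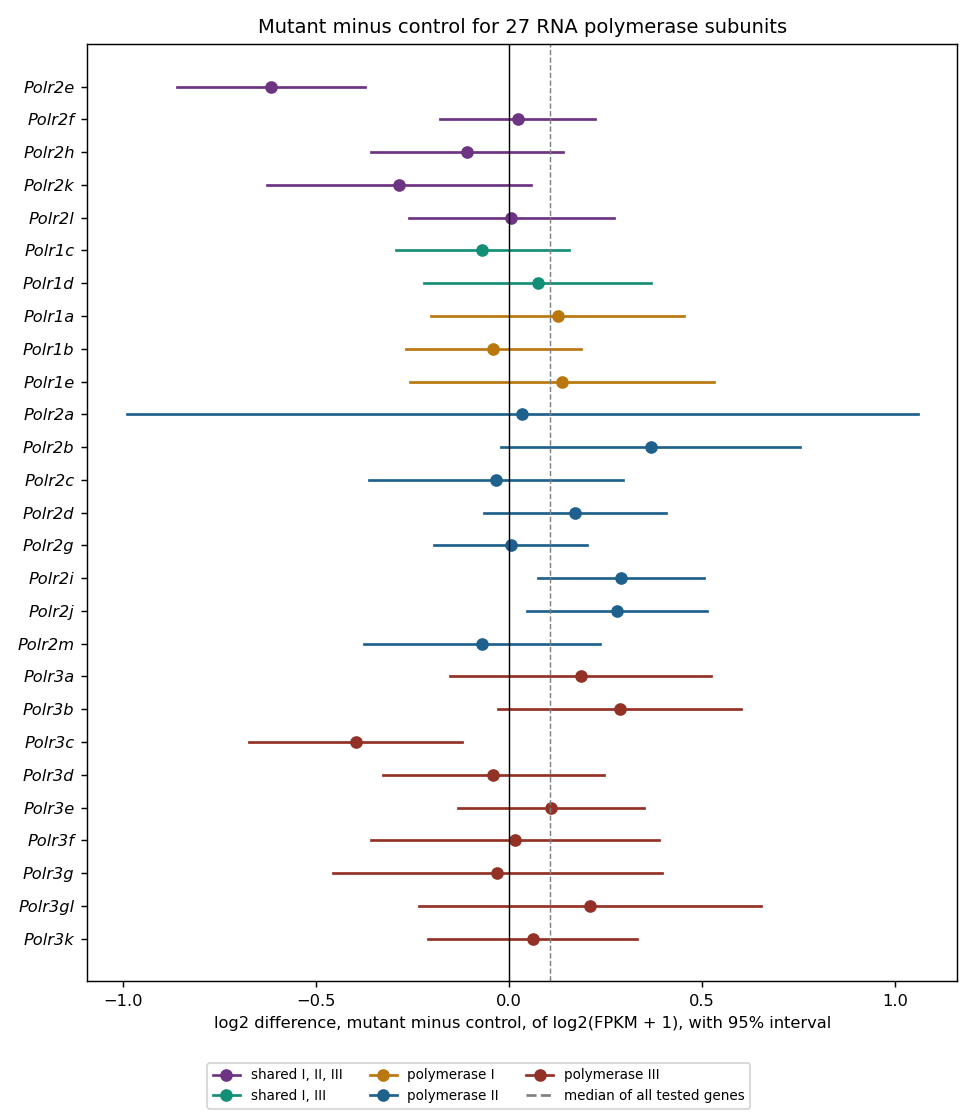
The log2 difference, mutant minus control, of 27 subunits (points) with its 95% interval from limma (lines), grouped by enzyme, with the median of all 13522 tested genes as a dashed line. Polr2e stands lowest at -0.62, and Polr2a has the widest interval.

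Polr2e was the subunit with the lowest log2 difference. It lay at 35.9, 37.1, 37.8, 49.1 and 39.3 FPKM in mutants 1 to 5, against 62.7, 59.6, 52.8, 66.1 and 66.1 FPKM in controls 1 to 5. Every mutant was below every control, with mutant 4 the highest mutant and control 3 the lowest control. The mean was 39.8 ± 5.34 FPKM in mutants and 61.4 ± 5.56 FPKM in controls (SD, n = 5 each), or 64.8% of control (exact two-sided permutation test, p = 0.00794). That p is unadjusted and is the smallest this test can give, which any gene without overlap reaches. Roughly 560 to 1400 fragments stood behind each value.

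On the log2 scale the difference of Polr2e was -0.62 (SE 0.11, 95% interval -0.86 to -0.37), and -0.72 relative to all tested genes. By p it stood at rank 24 of 13522 genes, short of the threshold (adjusted p = 0.0671, limma). Within the first set the mutant and control means gave a difference of -0.69, and within the second set, which holds 1 control, -0.58. With the set as a second term Polr2e passed (log2 difference -0.66, limma, adjusted p = 0.00853), as did 0.547% of all tested genes. In the first set alone it passed too (adjusted p = 0.0261, against 0.747% of all tested genes), and likewise with libraries rescaled to a common median ratio (log2 difference -0.74, adjusted p = 0.0114, against 0.222%). In each of these fits 1 of the 28 members passed, Polr2e. Leaving out mutant 4 gave an adjusted p of 0.0271 and leaving out control 5 gave 0.0497, while the other 8 libraries left out in turn gave values up to 0.247. The gene overlaps no other annotated gene. FPKM sums all transcripts of a gene, so the files do not separate spliced Polr2e from transcripts that keep intron 4.

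Set against its partners, Polr2e was also lower in mutants. Its ratio to Polr2g, which encodes the stalk subunit RPB7, was 0.637, 0.635, 0.652, 0.891 and 0.680 in mutants 1 to 5, against 1.10, 1.12, 1.03, 1.05 and 1.09 in controls 1 to 5. Its ratio to the geometric mean of 11 other polymerase II subunits (Polr2m left out) was 1.67 to 2.73 in mutants and 2.77 to 3.34 in controls. Neither of these ratios overlapped between groups, and neither depends on how libraries are scaled. The ratio to Polr2f was 0.912 to 1.44 in mutants and 1.34 to 1.95 in controls, so mutant 4 and control 3 overlapped there. By level Polr2e held rank 4 to 7 among the 28 members in mutants and rank 2 or 3 in controls. These ratios were formed after the levels had been seen and carry no test.

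**Figure D2:**
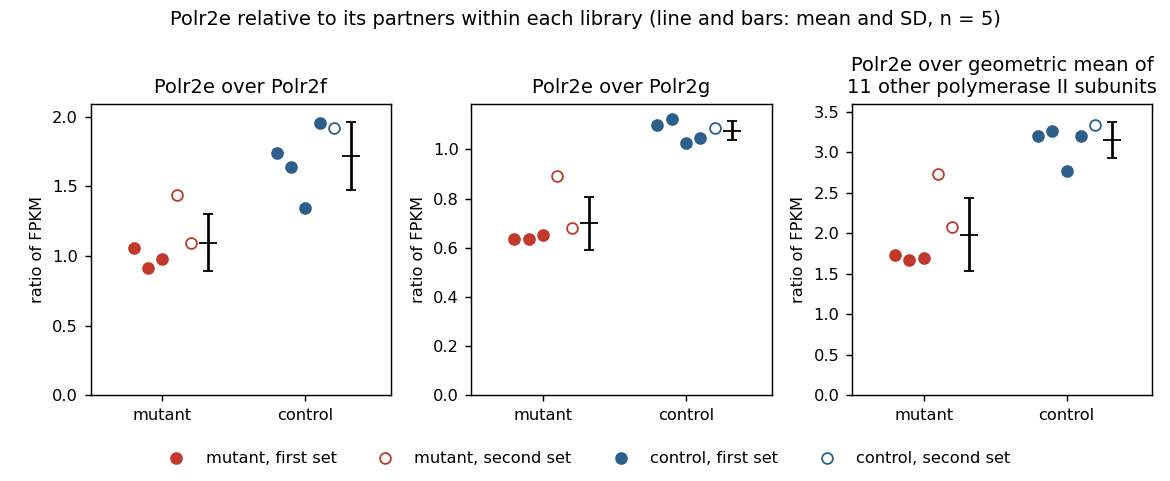
The ratio of Polr2e FPKM to Polr2f, to Polr2g and to the geometric mean of 11 other polymerase II subunits in each library (points; open points are the second set), with mean and SD beside them, mutants on the left. The 5 mutants sit below the 5 controls for the ratio to Polr2g and to the geometric mean, and overlap with them for Polr2f.

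Of the other subunits built into all 3 enzymes, none had a log2 difference as low as that of Polr2e over all libraries. Polr2f, which encodes RPABC2, averaged 36.6 ± 2.92 FPKM in mutants and 36.0 ± 2.13 FPKM in controls (SD, n = 5 each), a log2 difference of 0.02 with an interval of -0.18 to 0.22. The RPABC3 gene Polr2h averaged 21.4 ± 2.73 FPKM in mutants and 23.2 ± 2.47 FPKM in controls. Polr2l, for RPABC5, averaged 6.45 ± 0.595 FPKM and 6.47 ± 1.21 FPKM in mutants and controls. Polr2k, for RPABC4, lay at 2.87 to 4.53 FPKM in mutants and 4.01 to 6.95 FPKM in controls, a log2 difference of -0.29 (95% interval -0.63 to 0.06). That interval reaches the -0.62 of Polr2e. The difference of Polr2k was -0.12 within the first set and -0.78 within the second, which holds 1 control. These values rest on few fragments, roughly 25 to 70 in a library. None of these 4 passed the threshold (limma, adjusted p = 0.62 to 0.992), and in each the groups overlapped. The sum of the 5 shared members was 101 to 114 FPKM in mutants and 125 to 138 FPKM in controls, without overlap. Without Polr2e it was 61.8 to 77.1 FPKM in mutants and 65.5 to 73.6 FPKM in controls, which overlapped.

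Polr1c and Polr1d encode the alpha-like pair on which polymerases I and III are assembled. Polr1c averaged 57.1 ± 6.15 FPKM in mutants and 59.8 ± 4.32 FPKM in controls, and Polr1d 17.1 ± 2.13 FPKM in mutants and 16.2 ± 3.04 FPKM in controls (SD, n = 5 each). The intervals of their log2 differences were -0.29 to 0.16 and -0.22 to 0.37.

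Polymerase I members were among the lowest, and none differed beyond the spread. Polr1a, the largest subunit, lay at 6.13 to 6.85 FPKM in mutants and 4.37 to 8.11 FPKM in controls. Polr1b, the second largest subunit, lay at 6.27 to 7.76 FPKM in mutants and 6.43 to 8.12 FPKM in controls. Polr1e, part of a heterodimer particular to polymerase I, lay at 5.73 to 11.1 FPKM in mutants and 5.996 to 9.97 FPKM in controls. Their log2 differences were 0.13, -0.04 and 0.14 (limma, adjusted p = 0.825, 0.924 and 0.839). After rescaling the libraries, all 5 mutants lay below all 5 controls for Polr1b, with a log2 difference of -0.15 (adjusted p = 0.683).

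**Figure D3:**
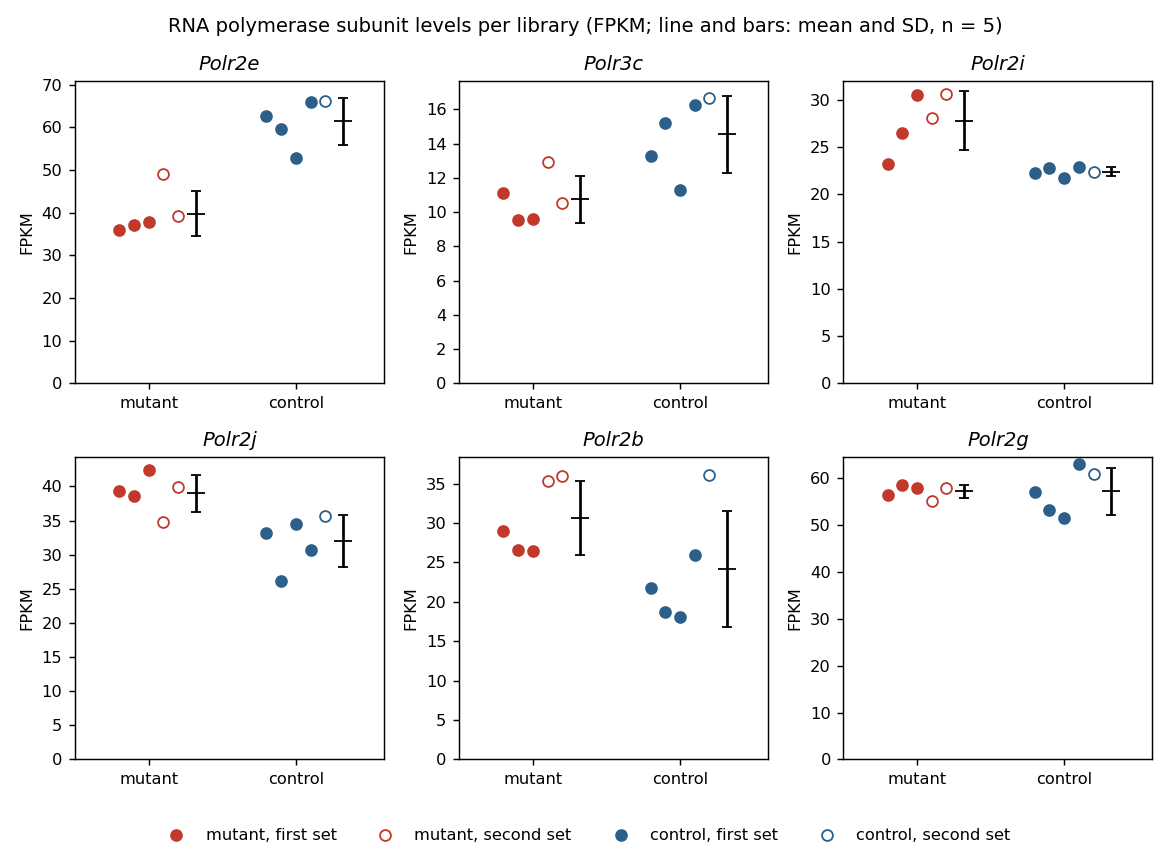
FPKM per library (points; open points are the second set) of Polr2e, Polr3c, Polr2i and Polr2j, whose 95% intervals excluded 0, and of Polr2b and Polr2g, with mean and SD beside them, mutants on the left. Polr2e lies lower in all 5 mutants and Polr2i higher, while for Polr3c, Polr2j, Polr2b and Polr2g the groups overlap.

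In polymerase II the subunits other than the shared ones spread to both sides. Polr2i encodes RPB9, which acts in transcript fidelity and start site choice. It lay at 23.2, 26.5, 30.5, 28.1 and 30.7 FPKM in mutants 1 to 5, against 22.2, 22.8, 21.8, 22.9 and 22.4 FPKM in controls 1 to 5. Every mutant was above every control (exact two-sided permutation test, unadjusted p = 0.00794), but mutant 1 exceeded control 4 by little. The log2 difference was 0.29 (SE 0.10, limma, adjusted p = 0.434), and 0.17 after rescaling. Polr2j encodes RPB11, one of the alpha-like subunits, and averaged 39.0 ± 2.77 FPKM in mutants and 32.1 ± 3.81 FPKM in controls (SD, n = 5 each). Its log2 difference was 0.28 (SE 0.11, adjusted p = 0.494), and mutant 4 at 34.7 FPKM lay below control 5 at 35.7 FPKM. Both genes overlap a gene on the opposite strand, Polr2i with Tbcb at a mean of 88.5 FPKM and Polr2j with Lrwd1 at 21.1 FPKM. No source used here says whether counting used strand, so reads of the partner gene could enter these levels. A gene of the files overlaps 12 of the 28 members on the opposite strand, and Polr2e is not one of them.

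Without overlap between groups, 2 members were lower in mutants as deposited, Polr2e among them, where 0.377% of all tested genes were, and 1 was higher, Polr2i, where 1.52% were. After rescaling 4 were lower, Polr1b, Polr2e and Polr3c among them, where 1.17% of all tested genes were, and 0 were higher, where 0.917% were. The non-overlap of Polr2i thus depended on the scaling.

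Levels of the stalk genes of polymerase II overlapped between groups. Polr2g averaged 57.1 ± 1.34 FPKM in mutants and 57.1 ± 4.95 FPKM in controls (SD, n = 5 each), with a log2 interval of -0.19 to 0.20. Its stalk partner Polr2d, for RPB4, averaged 28.5 ± 1.93 FPKM in mutants and 25.3 ± 3.56 FPKM in controls, of which control 5 had 31.5 FPKM. The log2 difference of Polr2d was 0.27 within the first set and -0.17 within the second. Polr2c, for the alpha-like subunit RPB3, averaged 10.8 ± 2.23 FPKM in mutants and 10.96 ± 1.66 FPKM in controls. Polr2m, the highest member, encodes Gdown1, a protein that associates with polymerase II and hinders the initiation factor TFIIF. It averaged 103 ± 12.4 FPKM in mutants and 109 ± 20.04 FPKM in controls. The adjusted p of these 4 ran from 0.664 to 0.994 (limma).

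The genes of the catalytic core of polymerase II separated by library set. Polr2a encodes the largest subunit, whose C-terminal domain recruits RNA processing factors. It lay at 40.2, 39.2, 31.5, 12.5 and 8.90 FPKM in mutants 1 to 5, against 21.3, 31.3, 20.6, 32.1 and 11.4 FPKM in controls 1 to 5. The 3 libraries of the second set, at 8.90 to 12.5 FPKM, were all below the 7 of the first, at 20.6 to 40.2 FPKM. The log2 difference between genotypes was 0.03, with an interval of -0.99 to 1.06. It was 0.50 in the first set alone (limma, adjusted p = 0.20), so a change of Polr2a was not detectable at this spread. Polr2b, the second largest subunit, went the other way. The second set had 35.3 to 36.1 FPKM of it, and the first 18.1 to 28.9 FPKM. Between genotypes it averaged 30.7 ± 4.67 FPKM in mutants and 24.1 ± 7.36 FPKM in controls (log2 difference 0.37, adjusted p = 0.588). Within the first set its difference was 0.37 and within the second -0.02.

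In all, 6 members were higher in every library of the second set than in any of the first, which were Polr1e, Polr2b, Polr3e, Polr3g, Polr3gl and Polr3k. That is 21.4% of the 28, where 15.5% of all tested genes separated so. Polr2a and Polr2c were lower, 7.14% of the 28, where 6.28% of all tested genes were. The other 20 members overlapped between the sets, Polr2e, Polr3c, Polr2i and Polr2j among them. Proliferation markers moved with the sets, at a summed 1305 to 1506 FPKM in the second and 953 to 1207 FPKM in the first over 8 genes. Their part in the subunit levels was not tested.

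**Figure D4:**
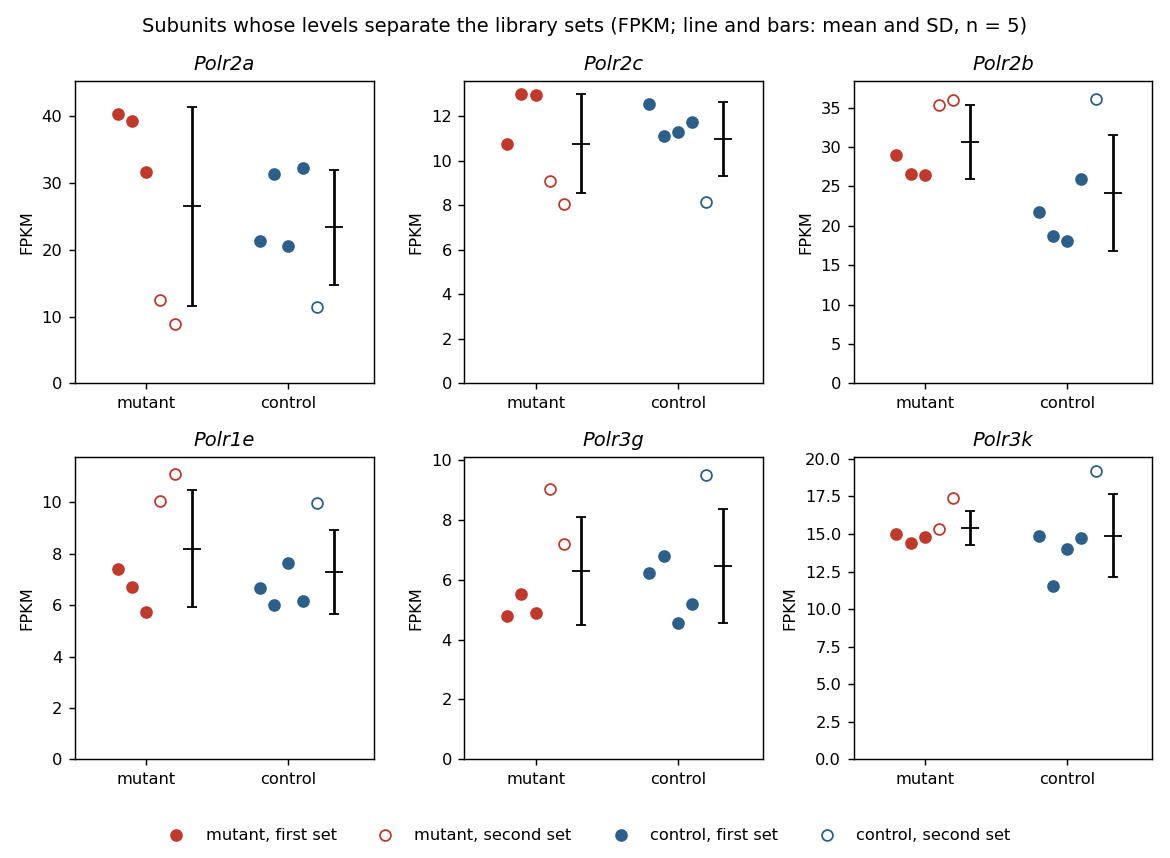
FPKM per library of Polr2a, Polr2c, Polr2b, Polr1e, Polr3g and Polr3k, with mean and SD beside the points, mutants on the left. Open points are the second set, which lies below the first for Polr2a and Polr2c and above it for the other 4 genes, in mutants and controls.

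In polymerase III, Polr3c encodes RPC3, part of a heterotrimer that acts in initiation. It lay at 11.1, 9.57, 9.59, 12.9 and 10.6 FPKM in mutants 1 to 5, against 13.3, 15.2, 11.3, 16.3 and 16.6 FPKM in controls 1 to 5. Control 3 lay below mutant 4, so the groups overlapped. The log2 difference was -0.40 (SE 0.13, limma, adjusted p = 0.368), -0.43 within the first set and -0.48 within the second. On the same strand Polr3c overlaps Gm22581, a small nucleolar RNA gene at a mean of 12.3 FPKM. Strand alone would not tell their reads apart. With rescaling and the set term together, a fit chosen after seeing the data, 3 members passed, where 89 of the 13522 tested genes did. Polr3c and Polr2e were among these members (limma, adjusted p = 0.0228 and 0.00250). Levels of the other parts of the heterotrimer overlapped between groups. Polr3f, for RPC6, averaged 10.5 ± 1.36 FPKM in mutants and 10.7 ± 3.59 FPKM in controls, of which control 5 had 17.1 FPKM. Its log2 difference was 0.12 within the first set and -0.56 within the second. Polr3g and Polr3gl encode alternative forms of RPC7, of which the Polr3g form is the one known from human stem cells. Polr3g averaged 6.28 ± 1.80 FPKM in mutants and 6.44 ± 1.91 FPKM in controls, and Polr3gl 9.71 ± 2.92 FPKM in mutants and 8.22 ± 2.41 FPKM in controls. The ratio of Polr3g to Polr3gl was 0.525 to 0.847 in mutants and 0.616 to 1.01 in controls.

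The catalytic subunits of polymerase III were low in both groups. Polr3a, the largest, lay at 8.18 to 9.53 FPKM in mutants and 5.50 to 10.3 FPKM in controls, and Polr3b, the second largest, at 3.40 to 3.99 FPKM in mutants and 2.15 to 4.19 FPKM in controls. Polr3d and Polr3e, for the heterodimer of RPC4 and RPC5, averaged 11.6 and 3.94 FPKM in mutants and 12.0 and 3.60 FPKM in controls. Polr3k, for RPC10, averaged 15.4 ± 1.16 FPKM in mutants and 14.9 ± 2.76 FPKM in controls. The log2 differences of these 5 ran from -0.04 to 0.29, and none passed.

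Of 4 subunits that carry other symbols 0 passed with limma, or had an unadjusted p under 0.05, and 4 lay above 0 (median log2 difference 0.14). Their summed level separated by library set, at 81.2 to 84.6 FPKM in the second and 54.6 to 67.3 FPKM in the first. Crcp encodes the polymerase III subunit RPC9 and averaged 10.8 ± 1.35 FPKM in mutants and 8.92 ± 1.596 FPKM in controls (log2 difference 0.25, limma, adjusted p = 0.604). The polymerase I subunit gene Znrd1 averaged 41.6 ± 8.49 FPKM in mutants and 36.5 ± 6.01 FPKM in controls. Twistnb and Cd3eap, also of polymerase I, had log2 differences of 0.11 and 0.06. Polrmt, the polymerase of mitochondria, averaged 9.02 ± 2.17 FPKM in mutants and 8.78 ± 1.79 FPKM in controls.

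Factors that work with the enzymes were taken from lists chosen by function, and 0 genes of each passed with limma, as deposited or with the set term. Below an unadjusted p of 0.05 were 1 polymerase I factor, Rrn3, and 1 assembly factor, Gpn3. Of 8 polymerase I factors 6 lay above 0, with a median log2 difference of 0.17. Rrn3, which brings polymerase I to its promoter, averaged 22.0 ± 0.893 FPKM in mutants and 18.0 ± 3.11 FPKM in controls (adjusted p = 0.516), and Taf1b had 0.22. Of 18 general factors of polymerase II 14 lay above 0 (median 0.09), with Tbp, the TATA-binding protein, at 0.37 and Gtf2h1, of TFIIH, at 0.35. Of 21 pausing and elongation factors 17 lay above 0 (median 0.16), with Hexim1, an inhibitor of the elongation kinase, at 0.22 and Leo1, of the PAF complex, at 0.31. Of 16 polymerase III factors 12 lay above 0 (median 0.07), with Snapc5 at 0.48 and Brf1, of TFIIIB, at -0.21. Of 14 assembly factors 8 lay above 0 (median 0.02), with the GTPase genes Gpn3 at 0.34 and Gpn1 at -0.28. The median over all tested genes, 0.11, lies within the range of these medians. The polymerase I factors summed to 143 to 167 FPKM in the second library set and 112 to 132 FPKM in the first. General factors of polymerase II summed to 364 to 395 FPKM and 271 to 336 FPKM in these sets. Elongation factors summed to 524 to 601 FPKM and 379 to 516 FPKM. Sums of the polymerase III and assembly factors overlapped between the sets.

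**Figure D5:**
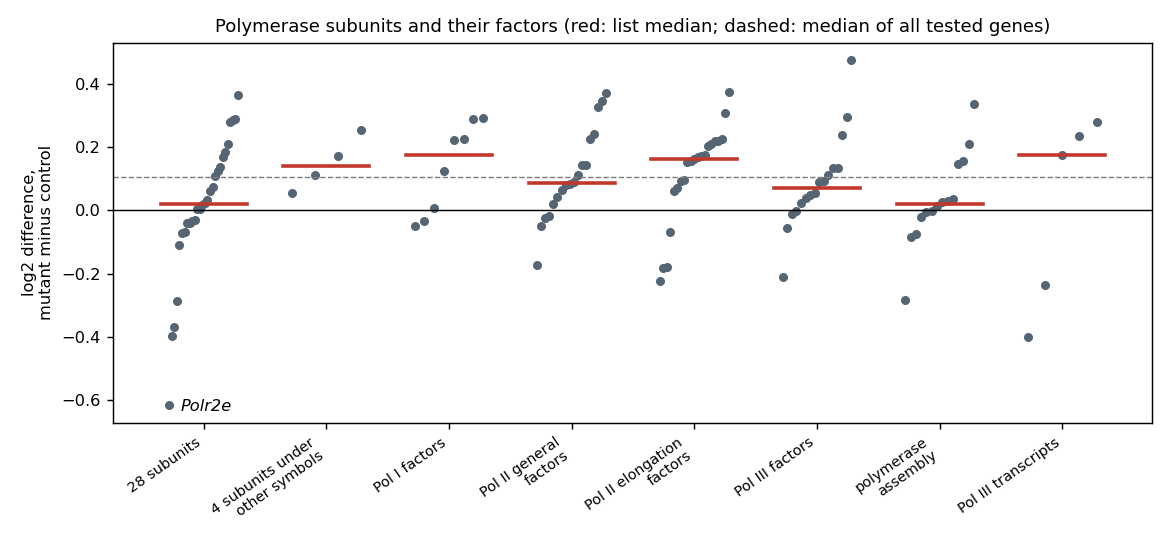
The log2 difference, mutant minus control, of each tested gene of the subunits and of 7 lists of related genes (points), with list medians in red and the median of all tested genes dashed. Polr2e is the lowest point of the 8 groups.

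RNAs made by polymerase III were measured too, although short RNAs are recovered unevenly by such libraries. Rn7sk averaged 343238 FPKM in mutants and 421344 FPKM in controls, and Rpph1, the RNA of ribonuclease P, 73478 FPKM in mutants and 99934 FPKM in controls. Rpph1 moved with the library set. Of 5 such RNAs tested 0 passed with limma, nor did any have an unadjusted p under 0.05 (adjusted p of Rn7sk and Rpph1 = 0.843 and 0.825). Of the 5, 3 lay above 0 (median log2 difference 0.18), which were Rmrp at 0.18, Rny1 at 0.24 and Rny3 at 0.28. With the set term Rny1 and Rny3 lay below 0, at -0.08 and -0.40, while Rmrp was at 0.14. Rn7sk and Rpph1 were at -0.10 and -0.07 in that fit. The set term lowered the SE of Rny3 from 1.08 to 0.31 and that of Rny1 from 0.49 to 0.28. The second set held 27368 to 40837 FPKM of Rpph1, and the first 89243 to 138947 FPKM.

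Markers of other cells were higher or lower between groups to varying degrees, and their part in the subunit levels was not tested. The 10 neuron markers summed to 389 to 584 FPKM in mutants and 306 to 463 FPKM in controls, and all 10 lay above the median of all tested genes. Of these Snap25 had the smallest p (log2 difference 0.64, limma, adjusted p = 0.225, and 0.0231 with the set term). The 6 microglial markers summed to 22.7 to 72.1 FPKM in mutants and 14.6 to 36.2 FPKM in controls, with C1qa at a log2 difference of 0.98 (limma, adjusted p = 0.563, and 0.00890 with the set term). The 8 ventral telencephalon markers summed to 1.39 to 14.7 FPKM in mutants and 2.34 to 51.2 FPKM in controls. Control 4 alone gave the 51.2 FPKM, and the next highest control had 5.02 FPKM. In bulk tissue, fewer cells of a type and less RNA per cell cannot be told apart. Erythroid, endothelial, mesenchymal and choroid plexus sums overlapped between groups, the erythroid sum at 5396 to 10159 FPKM in mutants and 3907 to 9702 FPKM in controls.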

How the data were processed

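Total RNA libraries were stranded and depleted of ribosomal RNA, per the labels' protocols, and aligned with HISAT2 to GRCm38 (mm10), per the submitters' processing notes. The authors deposited 1 value per gene symbol and library, read here as FPKM. The labels do not name that unit, and the values do not contradict it. For the counting program, its annotation, its use of strand and the depth, the sources used here give nothing.

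Genotype was fitted as the single term on log2(FPKM + 1) by limma 3.58.1 (R 4.3.3, intensity trend, robust moderation). Genes had to reach 1 FPKM in 5 or more libraries, and p-values were adjusted over all of them by Benjamini-Hochberg. The code was tested on simulated data. Single values used exact permutation tests. Alternatives were pseudocounts, no filter, rescaling, quantile normalization, plain moderation, replicate block, library set and leaving out each library. Sequences and coordinates came from GENCODE M21 (GRCm38), in which all 28 symbols matched. Named genes were the members, of which 1 is counted but not reported here by name, Rnu11 and, per list, genes past the threshold or else those with the smallest p. Members, lists and the library sets were chosen with earlier results of these data known. Tables and plots used Python 3.11.15, pandas 2.3.3 and matplotlib 3.10.9.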

Additional observations from a re-analysis of the deposited data

Results flagged for a closer look

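In 4 of 56 groups of 5 values (28 members in mutants and in controls), a library lay far from the others of its group, where chance gives about 1 in 20. Mutant 4 was the highest mutant for Polr2e, at 49.1 FPKM, and the other mutants lay at 35.9 to 39.3 FPKM. Control 4 was the highest control for Polr2l, at 8.61 FPKM. Control 5, the control of the second set, was the highest for Polr2d, at 31.5 FPKM, and for Polr3f, at 17.1 FPKM.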

How the results depend on the processing

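The number of genes past the threshold was 21, and it was 2 with no filter on low values, 35 after quantile normalization, 11 without trend and robust moderation, 74 with the library set as a term, 101 in the first set alone and 89 with rescaling and the set term together. Leaving out a library gave 2 to 79, namely 2 when control 1, control 2, mutant 2 or mutant 3 was omitted, 4 for control 3, 9 for mutant 1, 10 for mutant 5, 11 for control 4, 26 for mutant 4 and 79 for control 5. The number of subunits past it, 0, was 1 after rescaling, after quantile normalization, with the set term and in the first set alone, and 3 with rescaling and the set term together. It was 0 or 1 with a library left out. Polr2e, at -0.62, was -0.74 after rescaling, -0.71 after quantile normalization, -0.66 with the set term, -0.69 in the first set alone and -0.76 with both, each past the threshold, and -0.69 to -0.58 with a library left out. The cause was not tested. Its sign held in every fit run. With the other pseudocounts and no filter its side of the threshold did not change. Rescaling turned the sign of 7 members that had passed no test, and gave 10 above and 18 below 0. Same-numbered mutants and controls did not all deviate together (correlations from -0.11 to 0.52), so the numbers were not taken as pairs. Mutants 2, 3 and 5 correlated best with the control of their own number, and mutants 1 and 4 did not. A replicate block gave 14 genes, 0 subunits and -0.62 for Polr2e (adjusted p = 0.0654). Depth limits Polr2k most.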
